A study of Homo sapiens with 2 samples.

Results

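Cyclins, cyclin-dependent kinases (CDKs), subunits of the anaphase-promoting complex (APC) and centromere proteins were examined for open chromatin in C4-2, an androgen-independent prostate cancer cell line derived from LNCaP and labelled C42. The genes were taken by symbol, as every protein-coding RefSeq gene starting with CDK, ANAPC, CENP, AURK or PLK, with CDC and a digit, or with CCN and a letter. This gave 152 of 20037 protein-coding genes of the autosomes (1 to 22), X and Y. Accessible DNA had been tagged by a transposase and sequenced (ATAC-seq) in 1 library of cells with a control shRNA, the reference of the study, and in 1 library of cells with an shRNA against WHSC1, also named NSD2, a histone H3 methyltransferase. Both came from the same line in the same medium, and no other agent is named. The files do not say whether the knockdown cells were a pool or 1 clone. With 1 library in each group there is no spread between replicates, no test between the groups was possible, and each difference given is one between these 2 libraries.

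Cyclins switch on CDKs at set points of the cell cycle. D-type cyclins act with CDK4 and CDK6 in G1, cyclin E with CDK2 at the entry into S phase, and cyclins A and B with CDK2 and CDK1 up to mitosis. The APC, a ubiquitin ligase, then marks cyclin B and securin for destruction, while centromere proteins hold the chromosomes to the spindle. Other cyclins and CDKs act on transcription by RNA polymerase II. Of the 152 genes, 24 share a prefix with these but form their own group, among them the small GTPase CDC42 and its effectors. The group also takes members that were given no other role, such as CDC14C, and their cell cycle roles were not assessed.

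A gene was counted as having a peak if a broad peak lay in it or within 3 kb of either end. Each peak carries the fold enrichment over local background and the −log10 q that the authors' peak caller gave it within its own library, and the folds were not scaled between libraries. The lists held 2010 control and 2418 knockdown peaks, and read depth is unknown. Intervals are 95% exact (Clopper-Pearson) intervals and cover the counting of genes or peaks only. Of 13 luminal prostate markers, ACP3 and STEAP2 had a peak in both libraries, while KLK3 and TMPRSS2 had none. None of 11 basal, fibroblast, endothelial and leukocyte markers had one, but nor did most luminal markers, so a missing peak says little about a gene.

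A peak lay at 36 of the 152 genes (23.7%, interval 17.2 to 31.3%), against 12.0% of all protein-coding genes. In the control 27 genes had a peak (17.8%, interval 12.0 to 24.8%), against 7.64% of all genes. In the knockdown 29 had one (19.1%, interval 13.2 to 26.2%), against 9.26%. Both libraries had a peak at 20 genes (13.2%, interval 8.23 to 19.6%), against 4.95% of all genes. The control alone had a peak at 7 genes (4.61%, against 2.69%) and the knockdown alone at 9 (5.92%, against 4.32%). For 19 genes a control and a knockdown peak overlapped (12.5%, against 4.69%). Had each gene carried a peak as often as the other protein-coding genes of its own chromosome, 18.7 genes would have had one in either library, 11.7 in the control and 14.6 in the knockdown. Held to a −log10 q of at least 2, the control count fell to 17 (11.2%, against 4.36% of all genes). The knockdown count fell to 23 (15.1%, against 5.63%). The count in both libraries fell to 12, with no share of all genes computed at this limit.

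**Figure D1:**
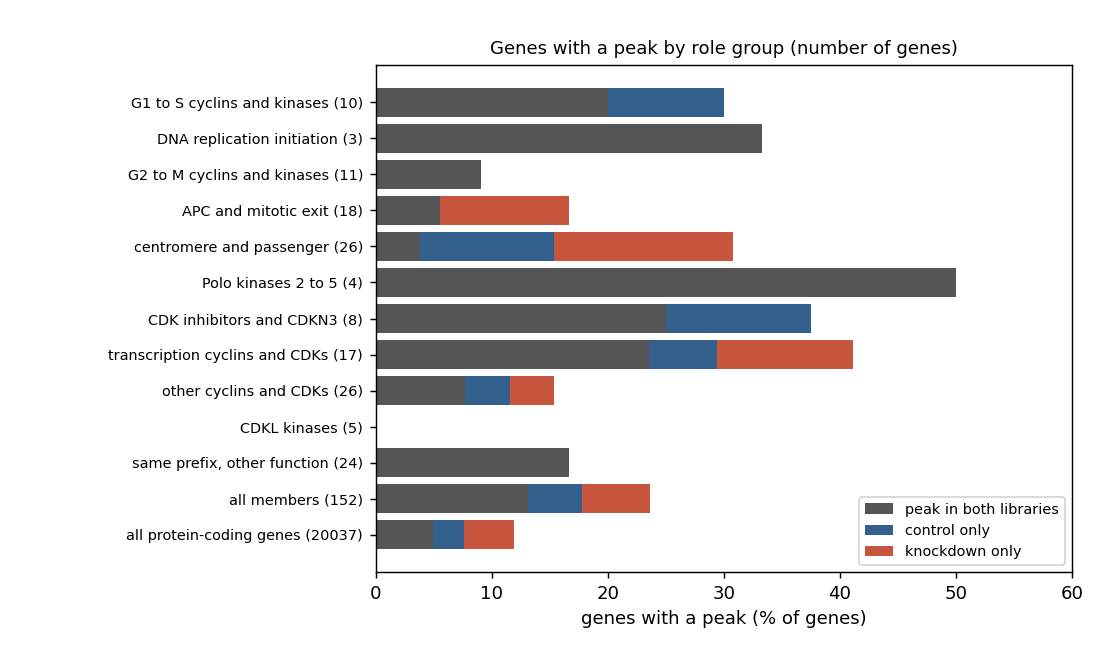
Share of genes with a peak (x axis, percent of the genes in the group) for 11 role groups, all 152 members and all 20037 protein-coding genes, with the number of genes in brackets. Grey marks genes with a peak in both libraries, blue those of the control alone and red those of the knockdown alone. Transcription-linked cyclins and CDKs reached 41.2% of 17 genes and centromere genes 30.8% of 26, against 12.0% of all genes, and most groups hold few genes.

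The peaks of these genes were about as strong as other peaks. The 29 control peaks had a median fold of 3.63 (3.20 to 4.89), against 3.59 for all control peaks. The 33 knockdown peaks had a median of 3.58 (3.12 to 4.98), against 3.46. Of the 29 control peaks, 19 were met by a knockdown peak (65.5%, interval 45.7 to 82.1%). The share was 54.1% of all control peaks and 58.0% of control peaks at any protein-coding gene. Of the 33 knockdown peaks, 19 were overlapped in the control (57.6%, interval 39.2 to 74.5%). The share was 44.7% of all knockdown peaks and 47.8% of knockdown peaks at any protein-coding gene. Peaks of genes with a peak in 1 library only had lower medians: the median −log10 q was 1.72 at the 7 genes of the control alone and 2.45 at the 9 of the knockdown alone, against 2.73 and 2.91 at the 20 genes with both. A −log10 q of 5 was reached by 4 of the 29 control peaks (13.8%) and 4 of the 33 knockdown peaks (12.1%). The shares were 9.50% and 9.88% of all peaks, and 6.81% and 7.15% of peaks at any protein-coding gene. The members' peaks were those of CCNG1, CCNH, CDKN2B and CDKN3 in the control, and of CCNG1, CDC73, CDK13 and CENPF in the knockdown.

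**Figure D2:**
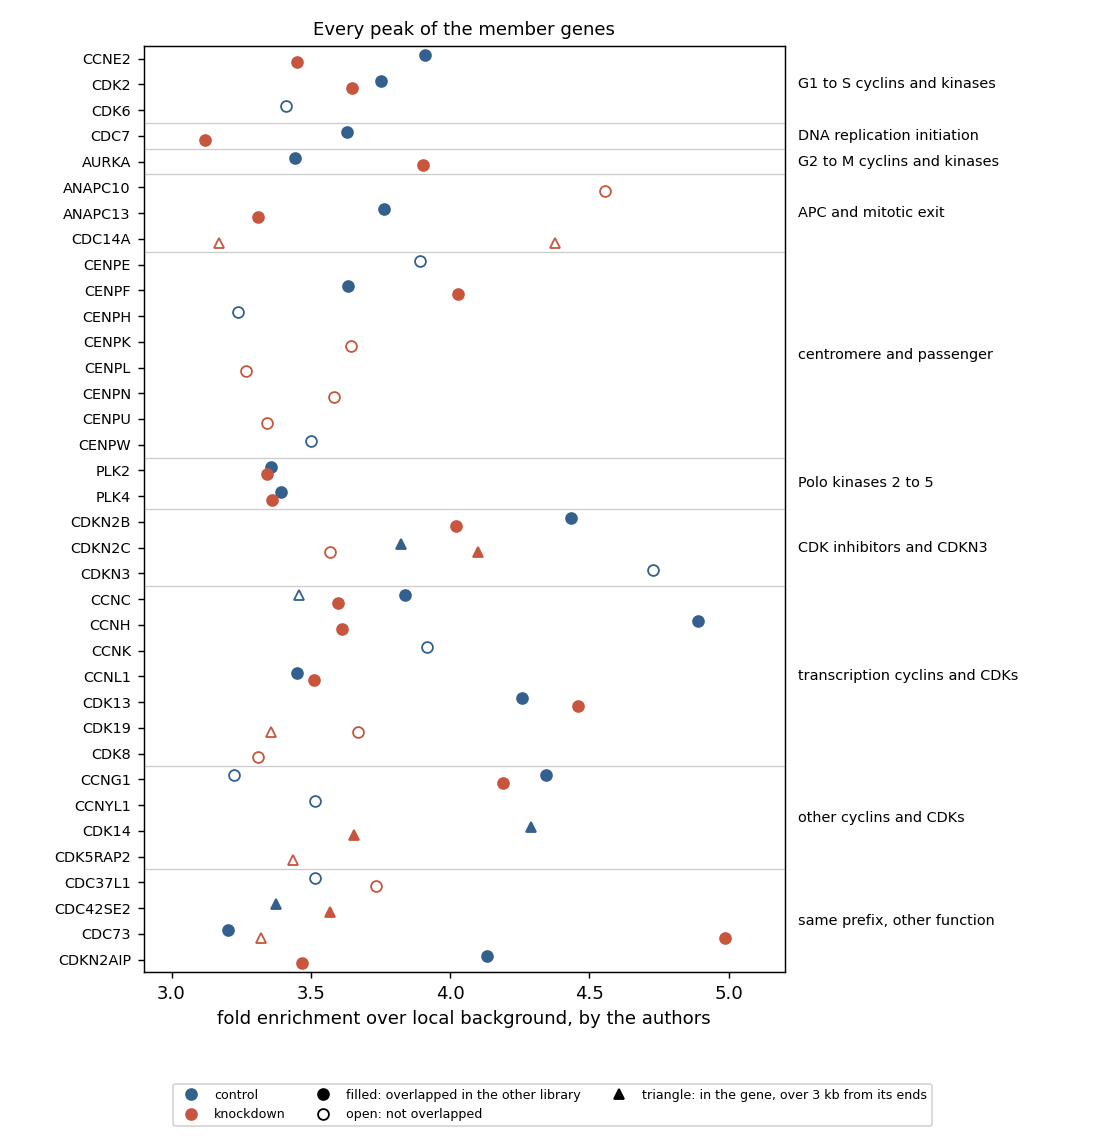
Fold enrichment (x axis, the authors' value) of all 29 control peaks (blue) and 33 knockdown peaks (red) of the 36 genes with a peak, ordered by role. Filled symbols are peaks overlapped by a peak of the other library, and triangles are peaks in a gene over 3 kb from its ends. The highest control value is CCNH (4.89) and the highest knockdown value CDC73 (4.98).

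Most peaks sat at starts of transcription. RefSeq promoter windows, from 250 bases before to 50 after an annotated start, were at hand for 137 of the 152 genes. Of the 23 control peaks at such genes 12 covered a start (52.2%) and 18 lay within 500 bp of one (78.3%). Of the 26 knockdown peaks 16 covered a start (61.5%) and 20 lay within 500 bp (76.9%). For all protein-coding genes 49.6% of control and 47.9% of knockdown peaks covered a start, and 76.0% and 74.0% lay within 500 bp, close to the shares here. Among the genes with no entry at hand were CCND1, CCND2, CCNE2, CDK2, AURKA, CDC37L1, CDC73, CENPH, CENPL, CENPM, CDKN1C, CDC42BPG, CDC42EP5 and PLK5.

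**Figure D3:**
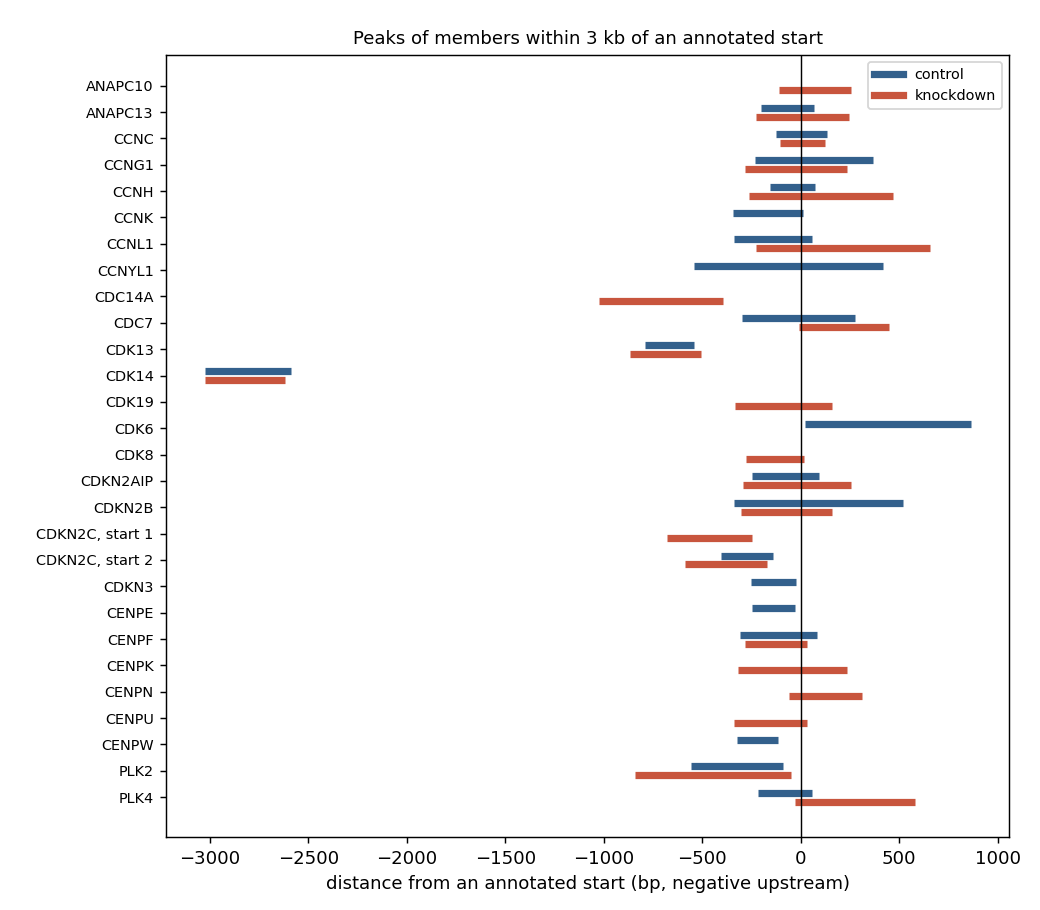
Extent of each peak (bars, blue control and red knockdown) relative to an annotated RefSeq start of the gene (x axis, bp, negative is upstream), for the 42 peaks within 3 kb of a start in 27 genes. For CDKN2C peaks at 2 starts are shown. Of the 42 bars 28 cross the start, and the CDK14 peaks lie 2588 and 2616 bp from it.

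The promoters below are those of genes with a peak in both libraries (CENPF, CCNG1, PLK4 and CDC7), in the control only (CENPE and CDKN3) and in the knockdown only (CENPK and ANAPC10). They are RefSeq windows of GRCh38.p14, written 5′ to 3′ on the gene's strand. Capitals mark matches, on either strand, to these words: the cell cycle homology region (CHR, TTTGAA or TTCGAA), the CCAAT box, E2F sites (TTTGGCGC or TTTCCCGC or TTTGCCGC or TTTCGCGC), the cAMP response element (CRE, TGACGTCA), the NRF1 word GCGCATGC and the ETS word CCGGAAG. A word for YY1 (AAGATGGC) was searched too and is in none of these windows. Matches are letters in a window and not measured binding.
CENPF promoter, chr1:214602945-214603244, plus strand: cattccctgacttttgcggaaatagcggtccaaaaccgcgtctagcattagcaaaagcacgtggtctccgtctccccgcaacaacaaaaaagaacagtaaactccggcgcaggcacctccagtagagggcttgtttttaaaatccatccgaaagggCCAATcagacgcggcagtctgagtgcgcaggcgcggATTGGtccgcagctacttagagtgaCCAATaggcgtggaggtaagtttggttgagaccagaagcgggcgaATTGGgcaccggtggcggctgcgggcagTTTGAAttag
CCNG1 promoter, chr5:163437321-163437620, plus strand: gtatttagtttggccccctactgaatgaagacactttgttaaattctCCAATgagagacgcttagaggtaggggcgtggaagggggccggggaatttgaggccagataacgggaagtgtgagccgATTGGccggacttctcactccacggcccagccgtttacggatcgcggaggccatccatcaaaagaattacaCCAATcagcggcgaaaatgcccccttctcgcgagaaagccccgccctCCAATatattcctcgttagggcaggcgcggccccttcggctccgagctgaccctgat
PLK4 promoter, chr4:127880643-127880942, plus strand: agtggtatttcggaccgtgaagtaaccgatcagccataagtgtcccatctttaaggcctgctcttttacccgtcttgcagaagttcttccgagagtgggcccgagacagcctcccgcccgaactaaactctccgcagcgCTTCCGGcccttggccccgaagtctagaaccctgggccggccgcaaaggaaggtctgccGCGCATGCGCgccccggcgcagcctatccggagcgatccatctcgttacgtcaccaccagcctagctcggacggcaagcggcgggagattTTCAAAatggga
CDC7 promoter, chr1:91500862-91501161, plus strand: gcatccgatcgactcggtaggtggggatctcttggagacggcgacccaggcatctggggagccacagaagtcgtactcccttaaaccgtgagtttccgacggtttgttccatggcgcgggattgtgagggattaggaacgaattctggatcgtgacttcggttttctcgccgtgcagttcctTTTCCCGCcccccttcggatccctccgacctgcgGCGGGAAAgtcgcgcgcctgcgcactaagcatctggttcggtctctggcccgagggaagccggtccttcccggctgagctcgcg
CENPE promoter, chr4:103198294-103198593, minus strand: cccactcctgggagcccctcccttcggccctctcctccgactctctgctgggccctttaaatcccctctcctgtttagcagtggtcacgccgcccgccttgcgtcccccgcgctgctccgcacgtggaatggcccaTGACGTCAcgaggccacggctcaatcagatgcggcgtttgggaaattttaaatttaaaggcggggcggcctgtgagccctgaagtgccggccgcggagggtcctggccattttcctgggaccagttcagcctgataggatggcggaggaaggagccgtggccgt
CDKN3 promoter, chr14:54396757-54397056, plus strand: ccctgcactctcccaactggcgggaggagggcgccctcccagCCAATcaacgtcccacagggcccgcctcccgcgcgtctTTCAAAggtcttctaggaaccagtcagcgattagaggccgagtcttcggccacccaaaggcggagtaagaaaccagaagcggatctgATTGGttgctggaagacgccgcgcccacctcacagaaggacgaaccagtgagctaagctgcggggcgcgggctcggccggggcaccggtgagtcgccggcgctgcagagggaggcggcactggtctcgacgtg
CENPK promoter, chr5:65563119-65563418, minus strand: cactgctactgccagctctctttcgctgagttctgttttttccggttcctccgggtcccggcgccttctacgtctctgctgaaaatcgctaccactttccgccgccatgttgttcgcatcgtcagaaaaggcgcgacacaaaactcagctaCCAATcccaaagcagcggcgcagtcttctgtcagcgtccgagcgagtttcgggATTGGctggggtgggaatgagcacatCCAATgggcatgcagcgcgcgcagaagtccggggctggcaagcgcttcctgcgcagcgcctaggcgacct
ANAPC10 promoter, chr4:145098147-145098446, minus strand: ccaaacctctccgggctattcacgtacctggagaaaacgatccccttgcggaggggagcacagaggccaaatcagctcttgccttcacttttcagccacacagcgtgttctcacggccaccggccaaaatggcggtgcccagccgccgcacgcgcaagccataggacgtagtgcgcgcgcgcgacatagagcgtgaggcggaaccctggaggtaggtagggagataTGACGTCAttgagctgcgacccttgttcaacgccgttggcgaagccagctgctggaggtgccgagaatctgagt

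In the CENPF window, 4 CCAAT boxes and 1 CHR were found, and the peaks covered 300 of its 300 bases in control cells and 281 in knockdown cells. The CCNG1 window also held 4 CCAAT boxes and lay under the peaks by 283 bases in the control and by 300 in the knockdown. Of the PLK4 window 268 bases lay under the control peak and 77 under the knockdown peak. It held a CHR, an ETS word and 2 overlapping NRF1 matches on opposite strands. The CDC7 window, at the later of the starts under its peaks, held 2 E2F words and was covered over 300 bases in the control and 60 in the knockdown. CDKN3 had 1 CHR and 2 CCAAT boxes, with 225 bases under the control peak. CENPE and ANAPC10 held a CRE each, and CENPK 3 CCAAT boxes. The control peak covered 216 bases of the CENPE window, and the knockdown peak 159 of the ANAPC10 and 300 of the CENPK window. Of all 22183 protein-coding windows, 34.7% hold CCAAT, 13.7% a CHR word, 12.8% the ETS word, 4.10% an E2F word, 3.74% the NRF1 word, 3.53% the YY1 word and 2.26% the CRE.

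Among the centromere proteins, 8 of 24 CENP genes had a peak (33.3%), against 12.0% of all genes, and only CENPF had one in both libraries. Among all protein-coding genes with a peak in either library 41.4% had one in both. Among the CENP genes 1 of 8 did (12.5%), and the interval, 0.316 to 52.7%, holds the 41.4%. CENPF, a large coiled-coil protein of the outer kinetochore, had 3.63-fold enrichment in the control (−log10 q 3.26) and 4.03-fold in the knockdown (−log10 q 5.17). The peak spans 214602888 to 214603280 on chromosome 1 in the control and 214602914 to 214603225 in the knockdown, at nearly the same place, with the higher value in the knockdown.

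The control alone had peaks at CENPE, CENPH and CENPW. CENPE, the kinesin-like motor that moves chromosomes to the spindle equator, had a 3.89-fold peak (−log10 q 2.22) that lay 31 bp upstream of its start. CENPW, a histone-fold partner of CENPT, had a 3.50-fold peak (−log10 q 1.38) 115 bp from its start. The CENPH peak, at 3.24-fold and a −log10 q of 1.08, ranked 1988 of the 2010 control peaks by −log10 q, and the start of the noncoding gene LOC112267932 lay under it. By −log10 q, CENPE was above the median of all control peaks (2.08) and the other two below it.

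In the knockdown alone, peaks lay at CENPK, CENPL, CENPN and CENPU. All are parts of the inner kinetochore, where CENPN reads the CENP-A nucleosome together with CENPL, and CENPK pairs with CENPH. Fold enrichment was 3.65 at CENPK (−log10 q 2.52), 3.58 at CENPN (2.09), 3.34 at CENPU (1.82) and 3.27 at CENPL (1.78). The CENPK peak also covered the start of PPWD1, on the other strand. The CENPN peak lay 272 bp from the start of CMC2. CENPU had no neighbour within 3 kb. With both lists held to a −log10 q of at least 2, CENPE, CENPF, CENPK and CENPN were left. CENPA, the centromeric histone itself, had no peak, and neither had AURKB, the kinase of the chromosomal passenger complex, or AURKC.

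Of 11 cyclins, kinases and activators of the G2 to M step 1 had a peak (9.09%, interval 0.230 to 41.3%), a share near the 12.0% of all genes. It was AURKA, a kinase of centrosomes and spindle poles. CDK1, CCNB1, CCNA2 and PLK1 had none in either library. For CDK1 the nearest peak lay far off (871334 bp in the control and 871271 bp in the knockdown), while CCNB1 had a control peak 11020 bp off. AURKA had 3.44-fold enrichment in the control (chromosome 20, 56392359 to 56392681, −log10 q 1.84) and 3.90-fold in the knockdown (56392247 to 56392558, −log10 q 2.87). Both peaks lay outside AURKA, 144 and 32 bp from an end, and both covered the start of CSTF1, a subunit of the cleavage stimulation factor, so they belong to AURKA no more than to CSTF1.

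Of 18 genes of the APC and of mitotic exit, 3 had a peak (16.7%, interval 3.58 to 41.4%), near the 12.0% of all genes. ANAPC13, a small APC subunit, had 3.76-fold enrichment in control cells and 3.31-fold in knockdown cells, with −log10 q of 3.005 and 3.16. These peaks covered starts of both ANAPC13 and CEP63, a centrosome protein read from the other strand. At ANAPC10, the subunit that helps the APC bind its substrates, the knockdown had a 4.56-fold peak (−log10 q 4.49, rank 313 of 2418) and the control none. It covered ANAPC10 starts and ended 6 bp from the start of ABCE1. CDC14A, a phosphatase that reverses CDK phosphorylation, had 2 knockdown peaks, both inside the gene. One of 4.38-fold (−log10 q 4.75) lay 133420 bp from any annotated start, and one of 3.17-fold lay 393 bp upstream of an internal start. The substrate adaptors and core subunits CDC20, CDC16, CDC23, CDC26 and CDC27 had no peak.

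For the step from G1 to S, 3 of 10 genes had a peak (30.0%, interval 6.67 to 65.2%, which holds the 12.0% of all genes). Cyclin E2 (CCNE2) had 3.91-fold enrichment in control cells and 3.45-fold in knockdown cells, with −log10 q of 3.66 and 2.84. Its peaks lay in the gene, 920 and 927 bp from an end, and within 33 bp of an end of NDUFAF6, a mitochondrial assembly factor. At CDK2 the folds were 3.75 and 3.65, but the peaks lay beyond the gene, 862 and 1124 bp from its end, and 34 bp from or over the start of RAB5B, an endosomal GTPase. These CDK2 peaks overlapped by 3 bp only, and with a distance of 1 kb in place of 3 kb CDK2 had a peak in the control alone. CDK6 had a peak in the control alone, at 3.41-fold (chromosome 7, 92833097 to 92833937, −log10 q 1.71). It lay 2636 bp inside the gene's end, yet 22 bp downstream of a further annotated CDK6 start, so it is close to a start although far from the gene's outer end. CCND1, CCND2, CCND3, CDK4, CCNE1, CDC25A and CDC34 had no peak in either library.

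CDC7, the kinase that fires replication origins, had 3.63-fold enrichment in the control (−log10 q 2.28) and 3.12-fold in the knockdown (−log10 q 1.67). The control peak covered both starts of the gene and the knockdown peak the later one. CDC6 and CDC45, which load and run the replicative helicase, had none.

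Of 8 CDK inhibitors, CDKN3 included, 3 had a peak (37.5%, interval 8.52 to 75.5%, which again holds 12.0%). CDKN2B (p15) and CDKN2C (p18), both inhibitors of CDK4 and CDK6, had peaks in both libraries. CDKN2B had 4.43-fold enrichment in the control (−log10 q 5.53) and 4.02-fold in the knockdown (−log10 q 4.16), over its start on chromosome 9. CDKN2C has 3 annotated starts. Upstream of the innermost, at 140 and 171 bp, the folds were 3.82 in the control (−log10 q 2.02) and 4.10 in the knockdown (−log10 q 3.36). In the knockdown alone a peak of 3.57-fold lay 247 bp from another CDKN2C start and over the start of FAF1, read from the other strand. CDKN3, a phosphatase of CDKs, had the strongest peak among the members with a peak in 1 library only. It was 4.73-fold in the control (−log10 q 5.61, rank 142 of 2010), 26 bp upstream of the CDKN3 start. The knockdown had none. CDKN1A, CDKN1B, CDKN1C, CDKN2A and CDKN2D had no peak.

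Of the other Polo kinases, PLK2, a stress-responsive kinase, and PLK4, which starts centriole duplication, had peaks in both libraries. They were 2 of 4 genes (interval 6.76 to 93.2%). Of all genes 12.0% had a peak in either library and 4.95% in both. The folds were almost level, 3.36 and 3.34 for PLK2 and 3.39 and 3.36 for PLK4 (control, then knockdown). Both PLK4 peaks covered a start, the control peak reaching 218 bp upstream and the knockdown peak 578 bp downstream of it, and they overlapped by 86 bp.

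Transcription-linked cyclins and CDKs had peaks at 7 of 17 genes (41.2%, interval 18.4 to 67.1%), against 12.0% of all genes. All 7 kept one at a −log10 q of at least 2. At that limit 4.36% of all genes had a control peak and 5.63% a knockdown peak. Cyclin C (CCNC), CDK8 and CDK19 form the kinase module of Mediator. CCNC had peaks over its start in both libraries, 3.84-fold in control cells and 3.60-fold in knockdown cells, and a further control peak inside the gene (3.46-fold). CDK8 (3.31-fold, −log10 q 2.12) and CDK19 (3.67-fold, −log10 q 2.45) had a peak over a start in the knockdown only. CDK19 also had a weak one inside the gene (3.36-fold, −log10 q 1.45). The start of AMD1 lay 859 bp from the CDK19 peak at the start.

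Cyclin H (CCNH), which activates CDK7 in the general transcription factor TFIIH, had the highest control fold of these genes. It was 4.89-fold in the control (chromosome 5, 87412857 to 87413086, −log10 q 5.36) and 3.61-fold in the knockdown (87412464 to 87413191, −log10 q 2.95), where the peak was wider (728 against 230 bp). The start of the noncoding gene LOC105379066 lay under both peaks. CDK7 itself had no peak. Of the cyclin K kinases, CDK13 had 4.26-fold enrichment in control cells and 4.46-fold in knockdown cells, 540 and 506 bp upstream of its start and at the start of the divergent transcript CDK13-DT. CDK12 had none. CCNK had 3.92-fold enrichment over its start, in the control alone (−log10 q 2.22). CCNL1, a cyclin of splicing, had 3.45-fold and 3.51-fold. No peak lay at CDK11A and CDK11B. They are near-identical copies, and whether their reads could be placed was not tested.

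Of 26 other cyclins and CDK-linked genes 4 had a peak (15.4%, interval 4.36 to 34.9%), and of the 5 CDKL kinases 0 (interval up to 52.2%). Both intervals hold the 12.0% of all genes. Cyclin G1 (CCNG1), a target of p53, was the only member with a −log10 q over 5 in both libraries. Its start had 4.35-fold enrichment in the control (−log10 q 6.42) and 4.19-fold in the knockdown (−log10 q 5.77). The start of the noncoding gene LOC105377700 lay 16 bp from the control peak and under the knockdown peak. A further control peak of 3.22-fold counted for CCNG1 lay 2054 bp past the gene and over the start of NUDCD2, 310 bp from that of HMMR. CDK14, a kinase that pairs with cyclin Y, had 4.29-fold and 3.65-fold at 1 place inside the gene. CCNYL1, a cyclin Y relative, had a weak peak in the control (3.52-fold, −log10 q 1.72), and CDK5RAP2, a centrosome protein, one in the knockdown (3.44-fold, −log10 q 2.45), inside the gene.

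In the group set apart by prefix, 4 of 24 genes had a peak (16.7%, interval 4.74 to 37.4%, against 12.0% of all genes). These 4 had one in both libraries, against 41.4% of all protein-coding genes with a peak. CDC73, a subunit of the PAF1 complex that travels with RNA polymerase II, was at 3.20-fold in the control (−log10 q 1.68) and at 4.98-fold in the knockdown (−log10 q 7.72). The control peak spans 193121834 to 193122298 on chromosome 1, wholly within the knockdown peak from 193121707 to 193122354, and no other gene had an end within 3 kb. The knockdown fold is 1.56 times the control fold, the highest such ratio among the 991 protein-coding genes with a peak in both libraries. A further knockdown peak inside CDC73 had 3.32-fold enrichment. CDKN2AIP, a regulator of p53, had 4.13-fold and 3.47-fold, and CDC42SE2, a small CDC42 effector, 3.37-fold and 3.57-fold deep inside the gene. CDC37L1, a relative of the kinase chaperone CDC37, had 3.51-fold and 3.73-fold in peaks that lay 6 bases apart and did not overlap.

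Across the 20 genes with a peak in both libraries, the strongest peak of a gene had the higher fold in the control for 12 and in the knockdown for 8. Among all 991 such genes the control fold was the higher for 57.4%. The ratio of knockdown to control ranged from 0.739 (CCNH) to 1.56 (CDC73), with a median of 0.982, against a median of 0.974 for all. CCNH ranked 19 from the lowest ratio among the 991. The next highest ratios after CDC73 were 1.13 (AURKA) and 1.11 (CENPF), and the next lowest after CCNH 0.840 (CDKN2AIP) and 0.852 (CDK14). Without replicates these ratios cannot be set against an error.

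**Figure D4:**
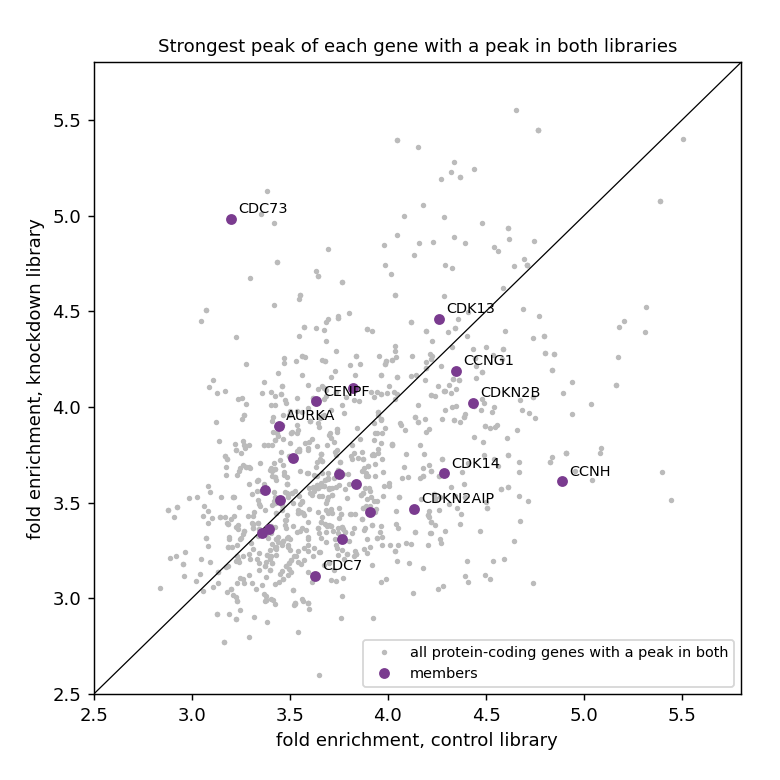
Fold enrichment in the control (x axis) and the knockdown (y axis) of the strongest peak of each gene with a peak in both libraries, for the 20 members (purple) and all 991 protein-coding genes (grey, 5 of them beyond the axes). The line marks equal values. CDC73 lies far above it (3.20 and 4.98) and CCNH below it (4.89 and 3.61).

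Of the 36 genes with a peak, 11 shared at least 1 peak with a protein-coding neighbour, in that an end of the neighbour lay within 3 kb. At 16 genes no neighbour of any kind lay that close. Which neighbour a peak belongs to cannot be told apart by these files. The 3 kb limit decided little. With 1 kb in its place only CDK2 changed, losing its knockdown peak 1124 bp beyond the gene. The CCNG1 peak at NUDCD2 lay 2054 bp past the gene, but CCNG1 also had a peak over its start. The nearest members outside the limit were CCNI2 (9752 bp) and CCNB1IP1 (9805 bp). Of the 116 genes without a peak, 98 had none within 100 kb in either list.

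Other genes of the same pathways, 76 in 5 lists, had a peak in 22 cases (28.9%, interval 19.1 to 40.5%), against 12.0% of all genes. Of these, 11 had one in both libraries (14.5%, against 4.95%), 5 in the control alone (6.58%, against 2.69%) and 6 in the knockdown alone (7.89%, against 4.32%). The strongest was FBXO5, the APC inhibitor EMI1, with 4.65-fold enrichment in the control (−log10 q 6.06) and 5.55-fold in the knockdown (−log10 q 9.89). Among 13 APC regulators and cohesin genes, the cohesin subunits SMC3 (4.05-fold and 3.20-fold) and STAG1 (3.88-fold and 3.36-fold at its start) also had peaks in both. Of 22 checkpoint and outer kinetochore genes, MAD2L1 (3.97-fold and 3.32-fold) and TTK (4.37-fold and 3.92-fold) did, while NUF2 had a peak in the control only (4.18-fold, near RGS5) and BUB3 in the knockdown only (3.32-fold).

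Of 20 replication genes 7 had a peak, against 12.0% of all genes. DBF4, the activating subunit of CDC7, had 4.26-fold enrichment in control cells and 3.64-fold in knockdown cells, in a peak shared with SLC25A40. CDC7 and DBF4 therefore had peaks in both libraries, each lower in the knockdown, as for 57.4% of all 991 genes with both. ORC6 (4.44-fold and 4.004-fold, near VPS35) and GINS4 (3.26-fold and 3.82-fold) had peaks in both as well. MCM4 (3.05-fold, near PRKDC) and MCM6 (3.63-fold) had one in the control only, and MCM3 (3.88-fold) and GMNN (3.97-fold), the licensing inhibitor geminin, in the knockdown only. Of 13 RB and E2F genes, E2F5 (3.17-fold and 4.08-fold) and E2F7 (3.81-fold and 3.44-fold) had peaks in both and E2F3 (3.25-fold) in the knockdown only. RB1 and E2F1 had none.

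Of 8 genes of the SCF ligase, CKS proteins and CDK tyrosine kinases, 5 had a peak, against 12.0% of all genes. The list is short and was chosen with earlier results of these data known. WEE1, the kinase that holds CDK1 inactive, had 3.75-fold enrichment in control cells and 3.23-fold in knockdown cells. FBXW7, which brings cyclin E to the SCF ligase (3.94-fold), and CUL1 (3.83-fold) had a peak in the control only. The CDK-binding proteins CKS1B (3.51-fold, near SHC1) and CKS2 (3.75-fold) had one in the knockdown only.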

How the data were processed

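The submitters' processing notes name GRCh38, the peak caller MACS2, the annotator ChIPseeker 1.22.1, Picard 1.101, the aligner Bowtie2 2.2.9, SAMtools 1.9 and CASAVA 1.8.2. How each was run, the options for calling peaks, any Tn5 cut-site shift and the handling of duplicates: not given in the sources used here. Each of these can change the number and width of peaks. The authors deposited 1 list of broad peaks per library, called separately. In it the fold enrichment is the deposited ratio of pileup over local background, and the deposited −log10 values are those of the p-value and the q-value of the same caller. The deposited score is the −log10 q-value times 10, truncated, and was not used. The groups come from the condition label of each sample.

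Gene positions and promoter windows came from RefSeq (GRCh38.p14), and positions are 1-based. Peaks were assigned to genes within 3 kb and overlapped by at least 1 bp in Python 3.11.15 with pandas 2.3.3, numpy 2.4.6, matplotlib 3.10.9 and scipy 1.17.1. The assignment was tested on simulated data, where 200 of 200 planted peaks and 200 of 200 overlaps were placed rightly. Every member with a peak is named, and a few withheld items are not reported here. Members and lists were chosen with earlier results of these data known. Alternatives were −log10 q limits of 2 and 5, equal numbers of peaks, a distance of 1 kb, gene ends only, annotated starts only, and other definitions of overlap.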

Additional observations from a re-analysis of the deposited data

How the results depend on the processing

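Across 69 recomputed values 55 stayed within 1.5 times the reported count, or for a share within its interval, and the other 14 were lower. Those changes came with a limit on −log10 q. At a limit of 2, 17 members had a peak in the control (11.2%, against 4.36% of all genes) and 23 in the knockdown (15.1%, against 5.63%). Both libraries had a peak at 12 members and overlapping peaks at 12, and shares of all genes were not computed for these. The centromere group then fell from 8 genes to 4 and the Polo kinases from 2 to 1. At a limit of 5, 4 members had a peak in the control (2.63%, against 0.579%) and 4 in the knockdown (2.63%, against 0.739%), 3 and 3 of them in 1 library only, and 1 in both, with overlapping peaks. Fewer peaks pass such limits by construction. Other settings were equal numbers of peaks, a distance of 1 kb, gene ends only and annotated starts only. A further one left out the 24 genes set apart by prefix, and was chosen after seeing the data. Over these settings the control count was 20 to 27 (14.6 to 18.0%, against 6.28 to 7.64% of all genes counted alike). The knockdown count was 21 to 29 (15.3 to 19.5%, against 7.52 to 9.26%). For equal numbers only the knockdown list was cut, so the control count and share could not change, though they are among the 55. Annotated starts were at hand for 137 members only, which can lower the counts of that setting. Overlap of at least 50% of both peaks left 15 genes with overlapping peaks, and a gap of up to 1 kb gave 20. The share of all genes was not computed for either. The lists without replicates or read counts limit all values.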

Other observations

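Peaks of all protein-coding genes were unevenly spread over chromosomes, and the members' counts are given beside those shares. On chromosome 5, 6 of 16 members had a peak (CCNG1, CCNH, CENPH, CENPK, PLK2 and CDC42SE2), against 24.3% of all protein-coding genes there. Chromosomes 16, 17, 19 and 22 hold 28 members, of which CENPN had a peak, and the shares of all genes were 4.22%, 1.796%, 0.827% and 0%. On chromosomes 10, 11, 15 and X, with 5, 6, 2 and 8 members, no member had one, and the shares of all genes were 15.7%, 12.1%, 6.81% and 3.30%.

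Among promoter windows of these genes under a peak, 13 of 35 (37.1%, interval 21.5 to 55.1%) held a CCAAT box, against 47.7% of all protein-coding windows under a peak and 34.7% of all windows. A CHR word was in 7 of 35 (20.0%, interval 8.44 to 36.9%), against 11.5% and 13.7%, and an E2F word in 3 of 35 (8.57%), against 6.005% and 4.10%. CRE was in 5 of 35 (14.3%, interval 4.81 to 30.3%), against 4.93% and 2.26%. The ETS word was in 2 of 35 (5.71%), against 20.8% and 12.8%, NRF1 in 4 of 35 (11.4%), against 7.43% and 3.74%, and YY1 in 1 of 35 (2.86%), against 4.52% and 3.53%. The windows of 1 gene overlap, so the 35 windows come from 24 genes, and these shares are descriptions. Median GC content was 63.3% in the 35 windows and 63.7% in the 161 member windows not under a peak.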
